A study of Rattus norvegicus with 2 samples.

Results

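The entries mir-21, mir-199a, mir-214, mir-101a and mir-101b are 5 hairpin entries of the rat heart that have been studied in cardiac fibroblasts and fibrosis. They were taken by name from the deposited count tables, leaving out rows marked with an asterisk, and are 5 of the 193 unmarked miRNA rows. The libraries were made from left ventricle RNA of Wistar rats aged 16 weeks. The control library came from animals kept under normal conditions, and the swim library from animals that swam for 90 minutes 2 times a day over 8 weeks, a model of physiological heart growth. There was 1 library per condition, the sources used here do not say how many animals were behind each, and no genetic change is named for either group. Every difference below is therefore a difference between 2 libraries, its 95% interval covers counting error only, and no test across conditions was made.

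Fibroblasts make the collagen matrix of the heart, and fibrosis is the excess of that matrix. A miRNA acts by pairing its seed, the bases near its 5′ end, with sites in target transcripts, which are then destabilised or translated less. In the heart, miR-21 is abundant in fibroblasts and is known to target the signalling inhibitor Spry1. The hairpins of mir-199a and mir-214 come from 1 long non-coding transcript, Dnm3os, which runs antisense within the dynamin gene Dnm3 and is active in mesenchymal cells. In mouse heart, miR-214 has been linked to calcium handling in cardiomyocytes through the exchanger Ncx1. The miR-101 pair is studied as limiting fibrosis and targets Fos in rat cardiac fibroblasts. In whole ventricle, a change in the number of cells of a type and a change in RNA per cell cannot be told apart.

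The mature sequences show which entries can act on the same sites and which rows could exchange reads. They are printed 5′ to 3′ from the RefSeq table of assembly GRCr8, with the seed (bases 2 to 8) in capitals. All 5 members matched this table.
miR-21-5p: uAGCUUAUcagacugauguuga
miR-199a-5p: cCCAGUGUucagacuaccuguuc
miR-199a-3p: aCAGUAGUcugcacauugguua
miR-214-3p: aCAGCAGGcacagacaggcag
miR-101a-3p: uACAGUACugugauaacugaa
miR-101b-3p: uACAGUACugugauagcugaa
miR-144-3p: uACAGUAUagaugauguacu
The last of these belongs to mir-144, an erythroid miRNA that is no member and is shown for its seed.

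Among the 724 mature entries of that table, the 2 miR-101 forms were the only ones with their 7-base seed. They differ by a single base, A16G, counted from the 5′ end of miR-101a-3p, so a read cut short before that base fits both hairpins. The seeds of miR-21-5p, both miR-199a arms and miR-214-3p were each found in 1 sequence of the table. The sequence of miR-144-3p shares bases 2 to 7, but not base 8, with the miR-101 pair. The opening 6 bases of miR-199a-3p stand from base 2 in miR-101a-3p, which shifts the seeds against each other by 1 base. The tables count reads per hairpin, so both arms of mir-199a share 1 row.

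In the genome, miR-21-5p lies at chr10:71902653-71902674 on the minus strand, and the nearest other gene in the RefSeq annotation is Vmp1, which encodes an autophagy protein. The mir-199a arms lie at chr13:77116255-77116277 and chr13:77116294-77116315, and miR-214-3p at chr13:77121713-77121733, all on the plus strand and within the bounds of Dnm3. The hairpin of Mir3120 overlaps mir-214 on the opposite strand, and the sources used here do not say whether the counting used strand. On the minus strand, miR-101a-3p lies at chr5:121081691-121081711, within the bounds of a long non-coding RNA gene. For miR-101b-3p the position is chr1:236273982-236274002 on the plus strand, within the bounds of Rcl1, an RNA-processing gene. The coordinates are those of GRCr8, while the builds named for the deposited data are rn4 and rn5.

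The deposited values were whole-number counts, and the miRNA rows summed to 2460845 in control and 3219939 in swim. Levels below are counts scaled to CPM (the count of an entry per 1000000 counts of that sum), with no scaling by length, the mature forms above being 20 to 23 bases long. The entries typical of heart muscle were all present, from 721 CPM for mir-208a to 61888 CPM for mir-133a in control. The 5 muscle entries summed to 68900 CPM in the control library and to 85687 CPM in the swim library, with single ratios of swim to control on both sides of 1, from 0.624 for mir-1 to 2.64 for mir-208b. For the smooth muscle pair mir-143 and mir-145 the sums were 199692 and 187599 CPM, with ratios of 0.936 and 1.32. For the endothelial mir-126a the levels were 37523 and 37987 CPM, and 3 leukocyte entries summed to 6979 and 6914 CPM. These 3 also had ratios on both sides of 1, at 1.07 for mir-146a, 0.908 for mir-150 and 0.785 for mir-142. The erythroid mir-144 stood at 29.3 and 24.8 CPM. The leukocyte mir-223 and mir-155, the erythroid mir-451 and mir-486 and the brain mir-124 were looked for and had no entry. The liver and brain entries mir-122 and mir-9a, with the 3 equal copies of mir-9a entered once, summed to 177 CPM in control and 48.8 CPM in swim. All of them, and mir-144, stand in the second stretch of the table described next, and with its columns exchanged the liver and brain sums were 64.0 and 135 CPM. The part that cell composition has in the values below was not tested.

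The table of each library consists of 2 ordered stretches (parts, in the plots), and this bears on mir-214. Its opening 81 rows are sorted from the highest to the lowest ratio of swim to control, while the 122 rows after them are sorted by the control count alone. The members mir-21, mir-199a, mir-101a and mir-101b are in the first stretch, where counts are high, and mir-214 is in the second. Of the entries compared, 43 of 75 in the first stretch and 4 of 98 in the second had a ratio above 1. The name let-7e is the only one listed without a copy number in both stretches, at 1193 counts in control and 821 in swim in the first, and at 821 and 1193 in the second. Its counts are thus exchanged between the columns. These rows do not tell which of the stretches has its columns as labelled. The direction given for mir-214, and those of the members in the first stretch, therefore hold only for the columns as labelled. An exchange of columns was tried for the second stretch alone, where mir-214 stands.

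Together the 5 members held 29870 counts in control and 38403 in swim. These were 1.21% of the control total (95% exact binomial interval 1.20 to 1.23%) and 1.19% of the swim total (1.18 to 1.20%). Within this sum the shares differed between the libraries. The share of mir-21 was 67.1% in control and 59.1% in swim, that of mir-101a 16.7% and 21.3%, and that of mir-199a 11.6% and 14.7%. For mir-101b the share was 3.79% and 4.51%, and for mir-214 it was 0.844% and 0.318% as labelled, or 0.410% and 0.654% with the columns of the second stretch exchanged. In both libraries the order of levels was mir-21, mir-101a, mir-199a, mir-101b and mir-214, and no neighbours in that order had overlapping counting intervals.

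**Figure D1:**
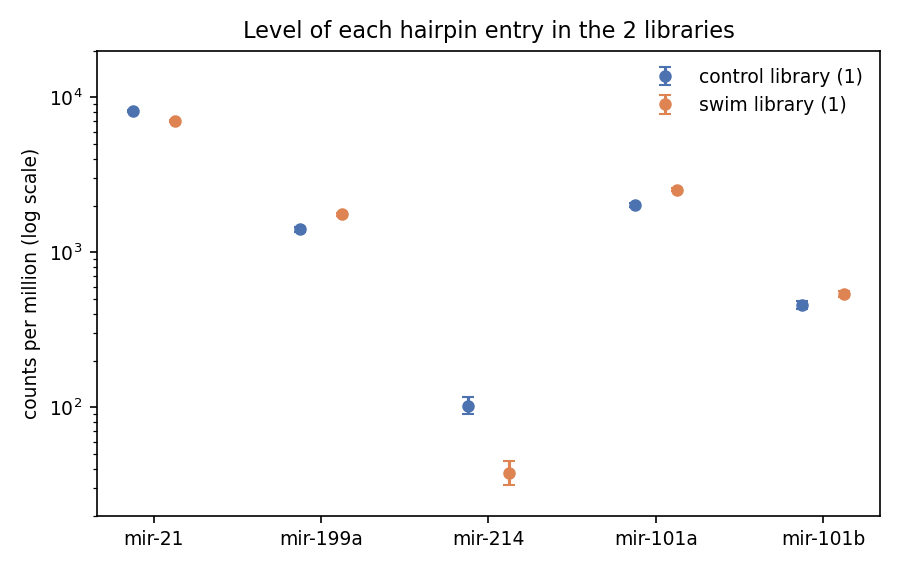
Level of each of the 5 entries in CPM (log axis) in the control library and the swim library, with exact binomial 95% intervals that cover counting error only. The order of the entries is the same in both libraries, from mir-21 at 8142 and 7054 CPM down to mir-214 at 102 and 37.9 CPM.

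The fibroblast miRNA mir-21 was the most abundant of the 5. It had 20036 counts in control and 22713 in swim, which are 8142 and 7054 CPM. It ranked 15th of the 193 rows in control and 16th in swim. The ratio of swim to control was 0.866 (95% interval 0.850 to 0.883), a log2 ratio of -0.21. This direction depends on the scaling. The log2 ratio was 0.39 under median-of-ratios factors, 0.077 under the TMM factors of edgeR, and 0.18 for counts with no rescaling. Its place among other entries does not depend on those 3 scalings, and of the 75 entries in its stretch 13 had a lower ratio. The entries nearest to it in ratio were mir-186 at 0.868 and mir-450a at 0.870, measured by the difference in log2 ratio between the 2 libraries. Next to it in control abundance were mir-99b above, with a ratio of 0.578, and mir-26b below, with 0.970.

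The ratios of mir-21 and mir-199a lay on opposite sides of 1 under the scaling by totals. The entry mir-199a, whose row pools the reads of both its arms, had 3464 counts in control and 5653 in swim, or 1408 and 1756 CPM. The ratio was 1.25 (1.20 to 1.30), with a log2 ratio of 0.32 that was positive under each of the 10 settings tried. Several of these, such as other pseudocounts and the exchange of columns in the second stretch, hardly move this entry. An exchange of columns in the first stretch, where it stands, was not among them. The count of mir-21 was 5.78 times that of mir-199a in control and 4.02 times in swim. This ratio within a library is the same under any scaling, and it changed by 0.695-fold (0.663 to 0.728). Of the 75 entries in the first stretch 53 had a lower ratio than mir-199a. The nearest in ratio were mir-181c at 1.27 and mir-181d at 1.20, and the neighbours in control abundance were mir-25 at 1.15 and mir-103-1 at 0.962.

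Both miR-101 entries had ratios above 1, short of the 2-fold rule given below for mir-214. The entry mir-101a had 4986 counts in control and 8182 in swim, or 2026 and 2541 CPM, a ratio of 1.25 (1.21 to 1.30). The entry mir-101b, with the same seed, had 1132 and 1733 counts, or 460 and 538 CPM, a ratio of 1.17 (1.08 to 1.26). The log2 ratios of 0.33 and 0.23 were positive under each of the 10 settings, several of which hardly move these entries. An exchange of columns in the first stretch was not among the settings. The count of mir-101a was 4.40 times that of mir-101b in control and 4.72 times in swim. Swim over control, this ratio changed by 1.07-fold, with an interval of 0.986 to 1.17 that includes 1. Because the pair differs at a single base, reads may be divided between the rows in a way the sources used here do not give. The entry mir-144, which shares bases 2 to 7 of the seed, had 72 counts in control and 80 in swim, a ratio of 0.849 (0.610 to 1.18). It stands in the second stretch of the table.

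Of the entries in the first stretch, 54 of 75 had a lower ratio than mir-101a and 46 of 75 than mir-101b. The entries nearest in ratio to mir-101a were mir-181c and mir-181d, the same as for mir-199a. For mir-101b they were both copies of mir-181b at 1.17. In control abundance mir-101a stood between mir-92a-1, with a ratio of 1.10, and mir-133b, with 1.95, and mir-101b between mir-450a and mir-107, the latter at 1.18.

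The least abundant member was mir-214, the partner of mir-199a on the same primary transcript. It had 252 counts in control and 122 in swim as the columns are labelled, or 102 CPM (90.2 to 116) and 37.9 CPM (31.5 to 45.2). The ratio was 0.370 (0.296 to 0.461), a log2 ratio of -1.43. It was the only one of the 5 members past a size rule of 2-fold, which asks for a log2 ratio of at least 1 in size, with a pseudocount of 0.5, and an interval that excludes 1. By that rule 36.4% of all 173 entries compared were called, 3.47% as higher and 32.9% as lower, so 1 call among 5 members is no more than the share in the whole table. In the second stretch 57.1% of the 98 entries were called lower, and in the first 8.00% of the 75 entries were called in either direction. Of these 98 entries 29 had a lower ratio than mir-214. The nearest in ratio were mir-674 at 0.365 and mir-190a at 0.357, and its neighbours in control abundance were mir-504 at 0.506 and mir-128-1 at 0.472, all 4 from the second stretch. The call was lost under median-of-ratios factors, with a log2 ratio of -0.84, and relative to the median of its stretch, with -0.31.

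With the columns of the second stretch exchanged, a setting chosen after seeing the data, mir-214 had 122 counts in control and 252 in swim. The ratio was then 1.57 (1.26 to 1.97) and no member passed the rule.

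**Figure D2:**
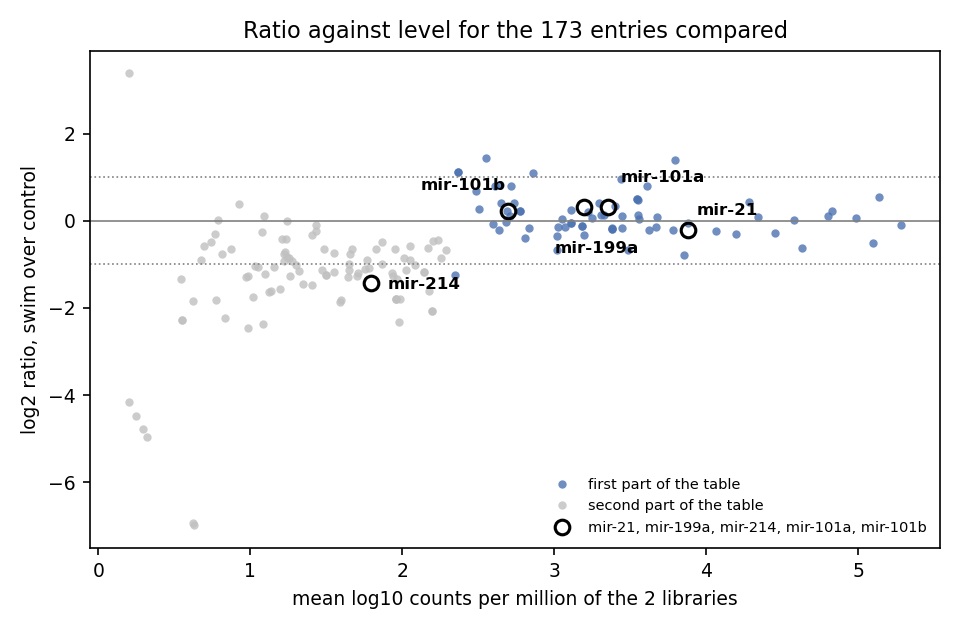
Log2 ratio of swim to control (vertical) against the mean log10 CPM of the 2 libraries (horizontal) for the 173 entries compared, with the first stretch of the table in blue, the second in grey, and the 5 members circled. Dotted lines mark the 2-fold rule. The circled mir-214 lies among the grey points, most of which are below 0, and the other 4 members lie among the blue points within the dotted lines.

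**Figure D3:**
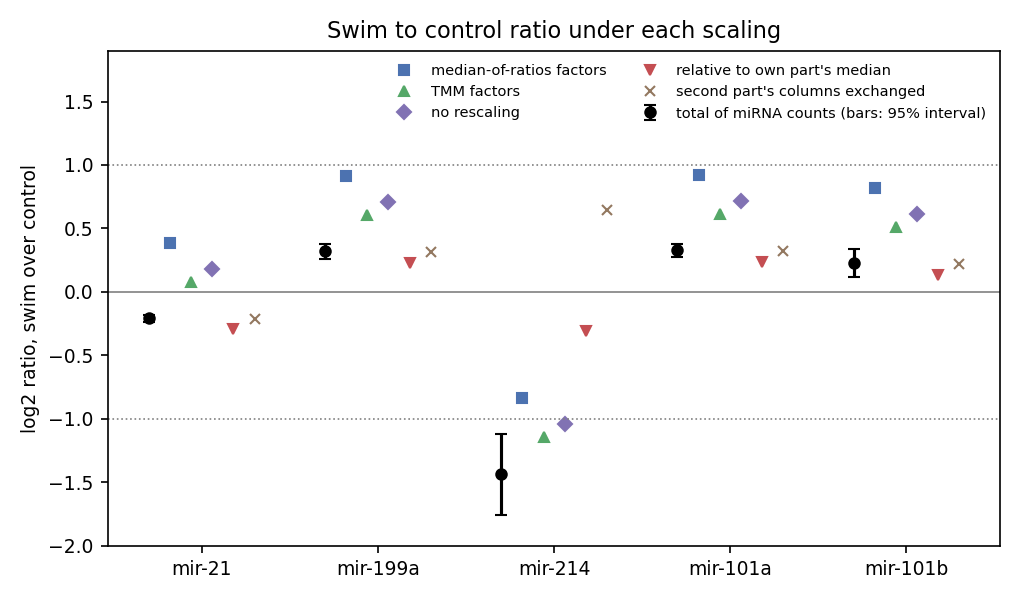
Log2 ratio of swim to control for each member under the scaling by total counts (black, with 95% counting interval), 4 other settings for scaling, and exchanged columns in the second stretch (cross). The values of mir-199a, mir-101a and mir-101b are above 0 throughout, mir-21 lies on both sides of 0, and mir-214 is below 0 except at the cross.

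The pair mir-199a and mir-214 parted in the tables as labelled. The count of mir-199a was 13.7 times that of mir-214 in control and 46.3 times in swim, so the ratio of the pair differed 3.37-fold (2.69 to 4.24). Against mir-214, the count of mir-21 was 79.5 times as high in control and 186 times in swim, a 2.34-fold difference (1.88 to 2.93). With the columns of the second stretch exchanged, mir-199a had 28.4 times the count of mir-214 in control and 22.4 times in swim. The change was then 0.790-fold for mir-199a and 0.549-fold for mir-21, so both reverse.

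The gap within this pair was set beside other hairpins that neighbour each other on 1 strand, within 10 kb in GRCr8. Of the 173 entries 167 could be placed, and they gave 42 pairs. In the 13 pairs with both entries in the first stretch, the median size of the difference in log2 ratio was 0.35, and the largest was 0.99. In the 13 pairs of the second stretch the median was 0.56, and the largest, 6.35, involves mir-201, an entry listed at 1 in swim. In the 16 pairs with 1 entry in each stretch the median was 1.28, and mir-199a with mir-214 stood at 1.75. The first-stretch entry had the higher ratio in 15 of these 16 pairs. With the second entry's columns exchanged the median of the 16 was 0.41, and mir-199a with mir-214 stood at 0.34. These pairs share members, and some share reads, so they are given as a description. In the second stretch 94 of the 98 entries had a ratio below 1 as labelled, and 68 were above 1 when exchanged. The pairs across the stretches carry this same skew, so they cannot tell whether columns were exchanged.

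The copies of mir-92a also fall in both stretches. The row of mir-92a-1, in the first, held 5001 counts in control and 7190 in swim, 1.44 times as many. The row of mir-92a-2, in the second, held 598 and 430 counts, 0.719 times as many, or 1.39 times with the columns exchanged. No source used here says that columns were exchanged. Leaving aside let-7e, every entry of the first stretch had at least 838 counts in 1 of the libraries and no entry of the second had more than 795, so the stretches depend on the values compared.

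**Figure D4:**
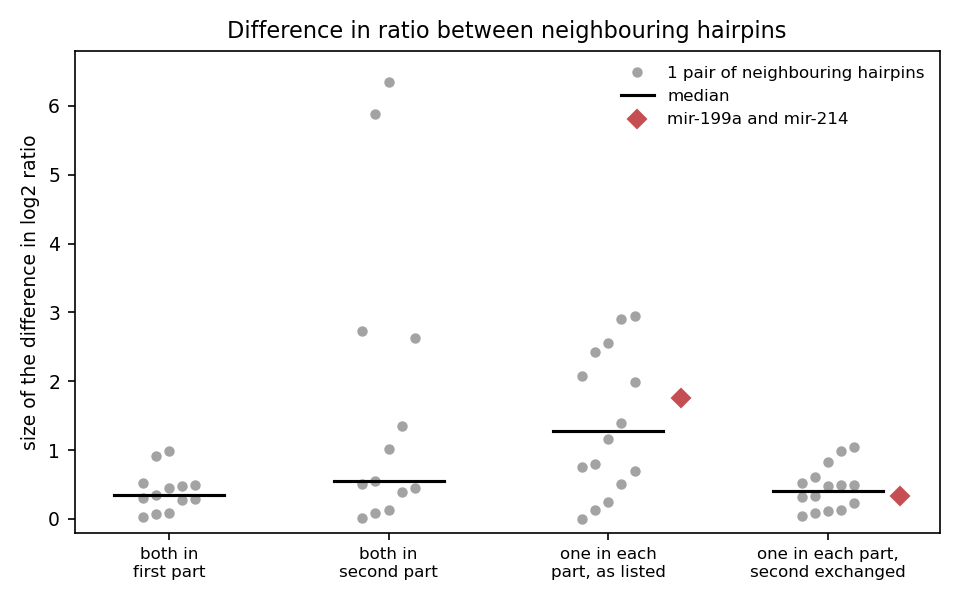
Size of the difference in log2 ratio (vertical) between neighbouring hairpins, for pairs within the first stretch, within the second, and with 1 entry in each, as listed and with the second entry's columns exchanged. Each grey point is 1 pair, lines are medians over all pairs of a column, and the red diamond is mir-199a with mir-214, at 1.75 as listed and 0.34 when exchanged.

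Other miRNAs studied in fibrosis gave 3 calls among 21 entries compared, against the 36.4% of all entries called. All 3, each lower, were among the 5 entries of the second stretch, and 0 of the 16 in the first were called. By stretch, 57.1% of the 98 entries of the second were called lower, and 8.00% of the 75 of the first were called. Both copies of mir-29b, with equal counts, are among the 3, and with hairpin copies summed the calls were 2. The median log2 ratio of the 21 was 0.03, against -0.59 for all 173 entries. With the columns of the second stretch exchanged these medians were 0.23 and 0.22. The calls among the 21 were then 2 higher, the equal copies of mir-29b, and 0 lower. Among all 173 entries they were 26 higher and 3 lower. As labelled, of the 4 entries compared for miRNAs studied as promoting fibrosis, 1 was lower and 0 were higher. Of all 173 entries 32.9% were lower and 3.47% higher. That list held 6 names, of which mir-199b and mir-155 had no entry. Its entry mir-212, with 1 count in control and 7 in swim, was too low to be compared. The lower one was mir-34a, linked to cardiac ageing, with 385 counts in control and 231 in swim and a ratio of 0.459 (0.388 to 0.541). It stands in the second stretch, and with exchanged columns its ratio was 1.27, which is not a call. Both copies of mir-125b, studied in the conversion of fibroblasts to myofibroblasts, were at 0.924 and 0.927. For mir-132 the counts were 29 and 41, a ratio of 1.08 (0.655 to 1.80), or 0.538 (0.322 to 0.887) when exchanged.

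Of the 17 entries studied as limiting fibrosis, 2 were lower, 0 were higher, and 10 had a ratio above 1. Over all 173 entries 32.9% were lower, 3.47% were higher, and 47 had a ratio above 1. Only 3 of the 17 are in the second stretch, and in the first 43 of all 75 entries had a ratio above 1. The 2 lower ones of the 17 were the copies of mir-29b, a miRNA that targets collagen transcripts. Their equal rows, in the second stretch, held 795 control and 246 swim counts, at 0.236. With exchanged columns they were higher, at 2.46 (2.13 to 2.85). The highest ratios were 1.95 for mir-133b, a muscle miRNA, and 1.78 for mir-29c, both in the first stretch. In comparison with these, the ratio of 1.25 for mir-101a was lower than those of mir-30a at 1.47 and mir-29a at 1.39, and higher than that of mir-133a at 1.18. The number of calls among the 21 entries depended on the scaling, and under median-of-ratios factors 7 were higher and 2 lower. Under those factors 44 of all 173 entries were called, 18 higher and 26 lower.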

How the data were processed

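Each library came with 1 table of counts that the authors deposited, holding 203 rows of hairpin names. The deposited counts are whole numbers with different totals per library and were taken as unscaled. Bowtie 0.12.2 and the builds rn4 and rn5 are named, with no role, per the submitters' processing notes. A miRNeasy kit gave the total RNA, per the labels' protocols. The sources used here do not give the trimming, the rule for reads matching several hairpins or the annotation release. A row named Others made up 5.41% of the control table and 12.5% of the swim table by count. It was left out, as were 9 marked rows that repeat others. Both let-7e rows stayed in the totals without a ratio, leaving 191 entries. The comparison took the 173 whose counts in both libraries summed to 20 or more. All 5 members passed.

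Counts were divided by library totals. Ratios have conditional Clopper-Pearson 95% intervals, and ratios between entries exact conditional odds-ratio intervals (scipy 1.17.1). The intervals treat reads as independent, which PCR copies without molecular identifiers are not. TMM factors came from edgeR 4.0.16, used for nothing else. The ratio rule was tested on simulated counts with counting error only. Those hold no spread between animals, no PCR copies and no exchanged columns, so the test does not bear on these. Members, lists and alternatives were chosen with earlier results of these data known. Named entries are the members, the 2 highest and 2 lowest of the other fibrosis-linked entries that summed to 100 or more, the 2 nearest in ratio and the 2 abundance neighbours of each member, and cell markers. Other entries (let-7e, mir-92a-2, mir-201, mir-34a, mir-125b, mir-132, mir-212, mir-30a and mir-29a) were chosen after their values were seen.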

Additional observations from a re-analysis of the deposited data

How the results depend on the processing

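No paired analysis was possible because each condition has 1 library. Under median-of-ratios factors the log2 ratios were 0.39 for mir-21, 0.91 for mir-199a, -0.84 for mir-214, 0.92 for mir-101a and 0.82 for mir-101b. Under TMM factors they were 0.077 for mir-21, 0.60 for mir-199a, -1.15 for mir-214, 0.61 for mir-101a and 0.51 for mir-101b. With no rescaling they were 0.18 for mir-21, 0.71 for mir-199a, -1.04 for mir-214, 0.71 for mir-101a and 0.61 for mir-101b. Relative to the median of the own stretch they were -0.30 for mir-21, 0.23 for mir-199a, -0.31 for mir-214, 0.24 for mir-101a and 0.14 for mir-101b. These settings shifted the median of all entries by 0.59, 0.28, 0.39 and 0.59. With the columns of the second stretch exchanged, added after seeing the data, mir-214 reversed to 0.65. The ratio of mir-199a to mir-214 then changed by 0.790-fold, and that of mir-21 to mir-214 by 0.549-fold. No member was called (0 of 5) under median-of-ratios factors, relative to the own stretch, with exchanged columns or at a 3-fold rule. Of all entries 63 were called, against 44 under median-of-ratios factors, 44 under TMM factors and 42 with no rescaling. The count was 22 relative to the own stretch (11 higher and 11 lower) and 29 with exchanged columns (26 and 3). It was 41 at a summed count of at least 100, 94 at a 1.5-fold rule and 27 at a 3-fold rule. The 3 calls among the other fibrosis-linked entries became 9 under median-of-ratios factors, 5 under TMM factors, 5 with no rescaling, 1 relative to the own stretch, 8 at a 1.5-fold rule and 2 with exchanged columns (2 higher and 0 lower, against 0 and 3). Pseudocounts of 1 and 5, a total without the most abundant entry, and copies entered once moved no member beyond its counting interval. Depth limits mir-214, with 122 counts in swim, more than the other members.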
